A study of Mus musculus with 20 samples.

Results

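The genes described here encode the proteins of the mitochondrial ribosome, taken as every probe set whose 1 gene symbol in the platform annotation is Mrpl or Mrps followed by a number. They numbered 74 of the 12393 genes with a symbol of their own on the array, and 127 of its 22626 probe sets that are not controls. A probe set was tested if its signal reached the 40th percentile of its array on at least 4 of the 20 arrays. That left 109 of the 127 in the tests, and each of the 74 genes kept at least 1. The 18 that were left out carry the plain probe-set name; all 49 whose name ends in _a, _s or _x were tested. In Affymetrix naming, the _s and _x endings (6 and 12 probe sets) mark probes that can also match other transcripts.

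The cells were C2C12 myotubes, the multinucleated fibres that this established mouse myoblast line forms when serum is reduced. They had differentiated for 96 h. H2O2, a diffusible oxidant, was then given at 1, 10, 100 or 1000 µM, or left out, over 2 h, and all 5 groups were in 0.5% heat-inactivated horse serum during that time. RNA of each sample was read on an Affymetrix Mouse Genome 430A array, with 4 arrays a dose. The 4 are called independent replicates, with no word on separate cultures, so the p-values rest on a spread between arrays that may be partly technical. In bulk RNA, fewer cells of a type and less RNA per cell cannot be told apart.

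Mitochondria keep a small genome of their own, and the mitochondrial ribosome (mitoribosome) translates its few mRNAs into membrane subunits of the respiratory chain and the ATP synthase. The RNA of the mitoribosome is made inside the organelle. All of its proteins are encoded in the nucleus, made on cytosolic ribosomes and imported, so their mRNAs are part of the nuclear transcriptome measured here. Some are homologues of bacterial ribosomal proteins and others are found in mitochondria only.

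All 12 myotube markers measured were at or above the 40th percentile on all 20 arrays. Of markers of other cells, 7 of 7 measured cycling-cell genes, 6 of 8 fibroblast and matrix genes and 3 of 5 reserve-cell genes were also above it on all arrays, while 3 of 3 adipocyte genes and 4 of 5 leukocyte genes were above it on none. The 5 arrays called replicate 1 stood apart from the other 15 on the first principal component, which held 28.2% of the variance. They comprise the 4 numbered 1 and the 10 µM array whose title gives no number. Of the 109 mitoribosomal probe sets, 48 differed between these 5 arrays and the rest, 34 higher and 14 lower (44%, against 46% of all 14379 tested; rises 22.5% and falls 23.5% of all). With quantile normalization, described with the scalings, 30 were higher and 15 lower (41.3%, against 47.1% of all tested; rises 22.4% and falls 24.8%). Each dose holds 1 such array. Summed signals of the cycling-cell markers ran from 7480 to 8610 untreated and from 7480 to 8470 at 1000 µM. Between these doses they ran from 8590 to 9440 at 1 µM, from 8480 to 9250 at 10 µM and from 7210 to 7510 at 100 µM. The sums of the myotube markers ran from 72800 to 89300 untreated, from 91800 to 97100 at 1 µM and from 92400 to 98000 at 1000 µM. At an adjusted p under 0.05, 1 of the 7 cycling-cell markers fell at 100 µM and 1 at 1000 µM (0.355% and 8.48% of all tested probe sets). Of the 12 myotube markers, 1 rose at 1000 µM (2.46% of all tested probe sets). The part of these markers in the results was not tested.

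Promoters were read for 65 of the 74 genes in RefSeq windows of GRCm38.p6 that run from 250 bases before to 50 bases after the start of transcription. NRF1, ETS factors of the GABP kind, YY1 and SP1 are known regulators of nuclear genes for mitochondrial proteins. The ETS letters CCGGAAG stood on either strand in 24 of the 65 genes (36.9%), against 9.93% of all 27025 genes with a window and 21.5% of the 6658 genes that were tested on the array. The NRF1 letters GCGCATGCG were in 7 (10.8%, against 1.95% and 4.48%) and the YY1 letters AAGATGGCG in 7 (10.8%, against 1.64% and 3.88%). The SP1 letters GGGCGG were in 34 (52.3%, against 38.2% and 71.1%). For letters bound in stress responses, the antioxidant element TGACNNNGC was in 12 (18.5%, against 14% and 16.9%), and the ATF4 element TTGCATCA in 0, against 1.03% and 0.796%. These matches describe letters in a window and not binding. Base composition was not matched. The median window of the members held 58.7% G and C, against 52.7% over all windows. Its ratio of observed to expected CG pairs was 0.818, against 0.384.

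A further shared feature is position. In 24 of the 65 genes (36.9%) another gene starts on the opposite strand within 1000 bases upstream. The share was 12.3% of all genes with a window and 20.9% of the tested ones. Whether such pairs share a promoter was not tested. Mrpl46 and Mrps11 are such a pair and start 42 bases apart. Mrps12 lies head to head with Sars2, the mitochondrial seryl-tRNA synthetase, at 147 bases, Mrpl43 with Twnk, the mitochondrial DNA helicase, at 116, and Mrpl47 with Ndufb5, a complex I subunit, at 308. The 13 partner genes that were tested include Mrpl46 and Mrps11. Of these 13, 1 rose at 1000 µM and 0 fell, where 2.46% and 8.48% of all tested probe sets did. Psma2, a proteasome subunit, rose by 0.31 ± 0.09 (log2, SE, adjusted p = 0.0273), while Mrpl32 on the other side of their 205-base gap differed by 0.04 ± 0.09 (adjusted p = 0.817). Ndufb5 differed by 0.07 ± 0.08 and Mrpl47 by 0.12 ± 0.13, neither passing the test.

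The stretches below stand upstream of the start, 5′ to 3′, in lower case with matched motif letters in capitals. Mrps2 and Mrps6 are shown because the tests at 1000 µM called them, Mrpl17, Mrpl32 and Mrps18b as 3 of the 7 genes with the NRF1 letters, and Mrps11 because its stretch is the whole gap between 2 mitoribosomal genes. Their places in GRCm38.p6 are chr2:28467816-28468065 on the plus strand for Mrps2, chr16:92058086-92058335 (plus) for Mrps6, chr7:105811088-105811337 (minus) for Mrpl17, chr17:35916441-35916690 (minus) for Mrps18b, chr13:14613038-14613241 (minus) for Mrpl32 and chr7:78783090-78783130 (plus) for Mrps11.
Mrps2: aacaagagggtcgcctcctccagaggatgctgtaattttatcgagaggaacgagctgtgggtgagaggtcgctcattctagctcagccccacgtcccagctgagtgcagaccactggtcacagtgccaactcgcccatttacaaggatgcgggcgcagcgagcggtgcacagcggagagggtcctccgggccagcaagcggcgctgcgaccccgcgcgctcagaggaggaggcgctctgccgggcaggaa
Mrps6: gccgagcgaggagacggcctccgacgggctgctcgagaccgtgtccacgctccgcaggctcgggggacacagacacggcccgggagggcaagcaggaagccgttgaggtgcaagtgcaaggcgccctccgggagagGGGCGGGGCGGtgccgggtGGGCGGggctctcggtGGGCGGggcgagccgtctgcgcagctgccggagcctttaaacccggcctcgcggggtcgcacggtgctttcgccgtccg
Mrpl17: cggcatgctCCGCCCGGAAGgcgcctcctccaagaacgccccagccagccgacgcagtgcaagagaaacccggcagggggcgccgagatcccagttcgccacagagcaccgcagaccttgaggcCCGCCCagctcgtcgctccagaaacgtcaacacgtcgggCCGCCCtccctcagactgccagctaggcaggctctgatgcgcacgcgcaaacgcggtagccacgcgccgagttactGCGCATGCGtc
Mrps18b: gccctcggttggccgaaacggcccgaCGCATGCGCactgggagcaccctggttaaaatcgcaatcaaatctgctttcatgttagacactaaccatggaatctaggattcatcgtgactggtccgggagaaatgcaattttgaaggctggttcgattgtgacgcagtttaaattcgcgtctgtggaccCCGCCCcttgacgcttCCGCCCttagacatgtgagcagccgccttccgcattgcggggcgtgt
Mrpl32: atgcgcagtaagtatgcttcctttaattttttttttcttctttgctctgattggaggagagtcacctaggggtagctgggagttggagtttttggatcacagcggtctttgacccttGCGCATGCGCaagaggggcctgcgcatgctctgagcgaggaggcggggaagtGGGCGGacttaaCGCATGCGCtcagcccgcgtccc
Mrps11: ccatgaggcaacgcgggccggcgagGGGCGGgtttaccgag
The Mrps2 stretch holds none of the 6 motifs. That of Mrps6 holds 4 SP1 matches, the first pair overlapping. Mrpl17 has an SP1 and an ETS match that overlap, and an NRF1 match beside the start. Mrpl32 has 3 NRF1 matches, of which 2 are 1 palindromic stretch read on both strands.

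At the lower doses, no member was called. A change was called at an adjusted p under 0.05 in limma over all tested probe sets. At 1 µM, 0 of 109 were called (0% of all tested were; 5 members had an unadjusted p under 0.05, 4.59% against 6.68% of all tested), at 10 µM 0 (0.00695% of all tested; 6 members unadjusted, 5.5% against 4.99%) and at 100 µM 0 (1.22% of all tested, 0.862% higher and 0.355% lower; 8 members unadjusted, 7.34% against 11.2%). The median log2 difference from untreated over the 109 was 0.01 at 1 µM, 0.02 at 10 µM and -0.004 at 100 µM, against -0.02, -0.02 and -0.03 over all tested probe sets. With quantile normalization of the arrays as a second scaling, 0 members were called at these doses, where 0%, 0.00695% and 1.38% (1.08% higher, 0.299% lower) of all tested were and the medians were 0.03, 0.03 and 0.02. Unadjusted, 6, 5 and 9 members then had a p under 0.05 (5.5%, 4.59% and 8.26%, against 5.8%, 3.94% and 10.4% of all tested). At 100 µM the 95% interval of the difference lay inside ±0.5 log2 for 88 of the 109 (80.7%), against 60.4% of all tested, and inside ±1 for 108. Wholly above the untreated arrays were 3 members at 1 µM (Mrpl20, Mrpl42 and Mrpl57; 1.59% of all tested were), 1 at 10 µM (Mrpl57; 1.4%) and 5 at 100 µM (Mrpl2, Mrpl10, Mrpl17, Mrpl57 and Mrps18b; 3.79%). Wholly below them were 0 at 1 and 10 µM (2.19% and 2.67% of all tested) and 1 at 100 µM (Mrps21; 5.19%).

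At 1000 µM, 2 of the 109 members were called, 1 higher and 1 lower (1.83%, against 10.9% of all tested, 2.46% higher and 8.48% lower). Mrps6 rose and 1 of the 2 probe sets of Mrps2 fell. A further 19 members had an unadjusted p under 0.05 (21 of 109 in all, 19.3%, against 26.2% of all tested); with quantile normalization, the second scaling, 24 members did (22%, against 18.5%). The median difference over members was 0.07, against -0.07 over all tested, and 76 of 109 (69.7%) were above 0, against 39% of all tested. Differences ran from -0.72 to 0.37, with a middle spread from -0.03 to 0.17, where over all tested probe sets it was -0.26 to 0.09. The interval lay inside ±0.5 log2 for 78 of 109 (71.6%, against 49.5%).

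The scaling of the arrays bears on the calls at 1000 µM. The deposited values share a trimmed mean, while the median of all tested probe sets falls at 1000 µM from 8.80 to 8.68 (group means of the array medians, log2). With quantile normalization 3 members rose and 0 fell (2.75%, against 5.36% of all tested, 2.04% higher and 3.32% lower): Mrps6, Mrpl49 and Mrps25. The median over members was then 0.13, with 93 of 109 (85.3%) above 0, against a median of 0.01 and 52.2% over all tested. Centring each array on its median of tested probe sets moved the median of all tested by 0.13, and 18 members rose and 0 fell (12.1% of all tested were called). Centring on the median of all probe sets moved it by 0.20, and 36 rose and 0 fell (16.9% of all tested). The members' median stood above that of all tested by 0.14 under the deposited scaling, a gap that centring cannot change, and by 0.12 under quantile normalization. The sign of the members' median was the same under all 4 scalings, while the number called ran from 2 to 36.

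**Figure D1:**
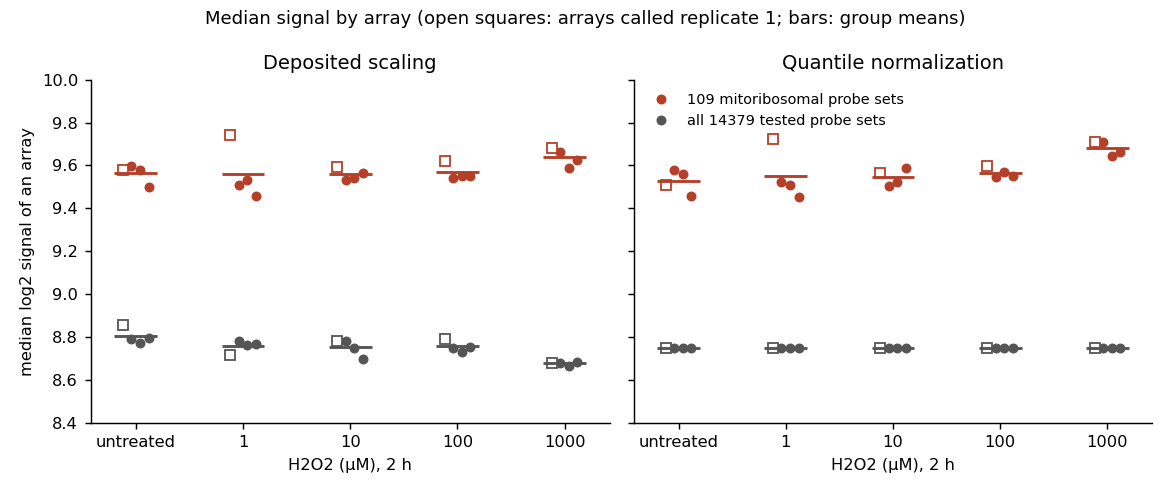
Median log2 signal of each array (y axis) by H2O2 dose in µM (x axis), for the 109 tested mitoribosomal probe sets and for all 14379 tested, under the deposited scaling (left) and quantile normalization (right); open squares are the arrays called replicate 1 and bars are means of 4 arrays. With the deposited scaling the members' medians ran from 9.50 to 9.60 untreated and from 9.59 to 9.68 at 1000 µM, while the medians of all tested ran from 8.77 to 8.86 and from 8.66 to 8.68.

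The median signal of the members on an array, on the log2 scale, was 9.56 ± 0.0439 (SD, n = 4) untreated, 9.56 ± 0.126 at 1 µM, 9.56 ± 0.0272 at 10 µM, 9.57 ± 0.0373 at 100 µM and 9.64 ± 0.0412 at 1000 µM. The untreated and 1000 µM arrays overlapped narrowly, and the highest value of all, 9.74, was the 1 µM array called replicate 1. With quantile normalization the groups at 0 and 1000 µM did not overlap, with arrays from 9.46 to 9.58 untreated and from 9.64 to 9.71 at 1000 µM. By probe set, 12 members were wholly higher at 1000 µM than untreated (11%, against 6.66% of all tested) and 5 wholly lower (4.59%, against 13.8%). The 12 were Mrpl2, Mrpl12, Mrpl21, Mrpl24, Mrpl27, Mrpl35, Mrpl42, Mrpl52, Mrps6, Mrps25, Mrps34 and Mrps36; the 5 were probe sets of Mrpl1, Mrpl15, Mrpl19, Mrpl44 and Mrps2.

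**Figure D2:**
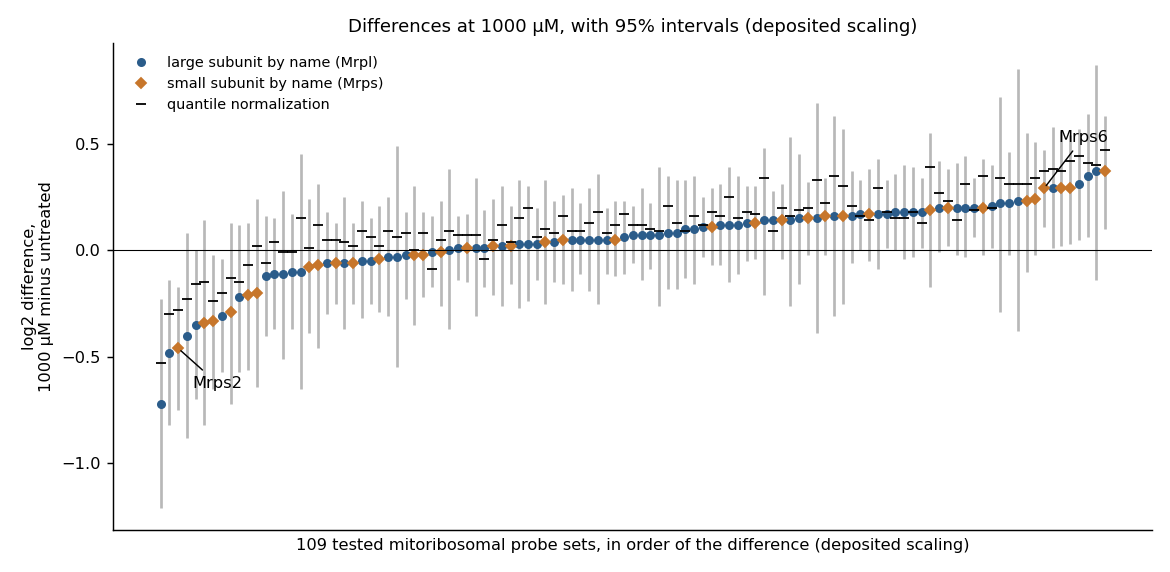
Log2 difference between 1000 µM and untreated (y axis) for the 109 tested mitoribosomal probe sets in order (x axis), with 95% intervals as grey lines; circles are Mrpl, diamonds Mrps, and black dashes the same probe set after quantile normalization. Differences ran from -0.72 to 0.37, 76 of the 109 points lie above 0 and the 2 called probe sets are named.

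Mrps2 is the homologue of bacterial S2 in the small subunit. On its dimmer probe set the signals were 268, 288, 262 and 254 untreated and 158, 189, 214 and 223 at 1000 µM, for replicates 1 to 4. The 1000 µM arrays all lay below the untreated ones. At 1 µM they were 233, 337, 268 and 240, at 10 µM 210, 274, 272 and 292, and at 100 µM 238, 267, 276 and 310, all of which overlap the untreated range. The Mrps2 difference at 1000 µM was -0.46 ± 0.14 (log2, SE, n = 4, adjusted p = 0.0358). Its brighter probe set gave 861, 592, 560 and 622 untreated and 658, 456, 506 and 465 at 1000 µM, so that these groups overlap through the replicate 1 arrays. Its difference was -0.33 ± 0.15 (adjusted p = 0.165). With quantile normalization the Mrps2 values were -0.28 (adjusted p = 0.269) and -0.24 (adjusted p = 0.403), and neither was called. The dimmer was also not called after either centring or with no filter, and it did not pass a filter at the 60th percentile. Its call ended without any 1 of the 4 untreated arrays or without 1000 µM replicate 1 or 2 (adjusted p up to 0.105). Both Mrps2 probe sets were called with array weights, with the replicate block, over replicates 2 to 4 alone and with a term for the replicate 1 arrays. With that term the brighter had adjusted p = 0.00687. Over its 19 alternatives the p of the brighter ran from 0.00687 to 0.608.

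Mrps6, the homologue of bacterial S6 in the small subunit, gave signals of 639, 632, 612 and 649 untreated and 703, 812, 847 and 743 at 1000 µM. The 2 groups did not overlap. At 100 µM it gave 704, 712, 637 and 691, at 10 µM 760, 610, 638 and 607, and at 1 µM 719, 639, 636 and 687. The rise at 1000 µM was 0.29 ± 0.08 (log2, SE, n = 4, adjusted p = 0.0316), and 0.37 with quantile normalization (adjusted p = 0.00803). It was also called in the 11 limma alternatives other than leaving out single arrays, while the crossed rule, which needs a fold above 1.75, called 0 members. Leaving out 1 array at a time kept the Mrps6 call in 2 of 8 fits: it ended without any 1 of the 4 untreated arrays, or without 1000 µM replicate 2 or 3, with adjusted p up to 0.105 and differences of at least 0.25.

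Mrpl41, a mitochondria-only protein of the large subunit, was the 1 member called by the F-test for any change over the 5 doses (0.917%, against 8.01% of all tested). The call came from its brighter probe set, whose signals were 1049, 899.5, 887 and 1128 untreated, 973, 874, 649 and 638 at 1 µM, and 658, 645, 987 and 680.5 at 10 µM. At 100 µM they were 814, 916, 990 and 1083, and at 1000 µM 1093, 1005, 1117 and 1156. The lowest signals were at 1 and 10 µM, in 2 and 3 of 4 arrays. The Mrpl41 differences from untreated were -0.36, -0.43, -0.06 and 0.15 from 1 to 1000 µM, with F-test adjusted p = 0.0427; this p ran from 0.00677 to 0.103 over 31 alternatives, and 5 of the 20 fits without 1 array kept the call: those without untreated replicate 3, 1 µM replicate 1 or 2, 10 µM replicate 3 or 100 µM replicate 1. The dimmer Mrpl41 probe set gave 0.04, -0.02, -0.07 and 0.20 at the same doses (F-test adjusted p = 0.459). With quantile normalization the F-test called Mrps6 instead (5.44% of all tested), and the adjusted p of Mrpl41 was 0.0507.

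**Figure D3:**
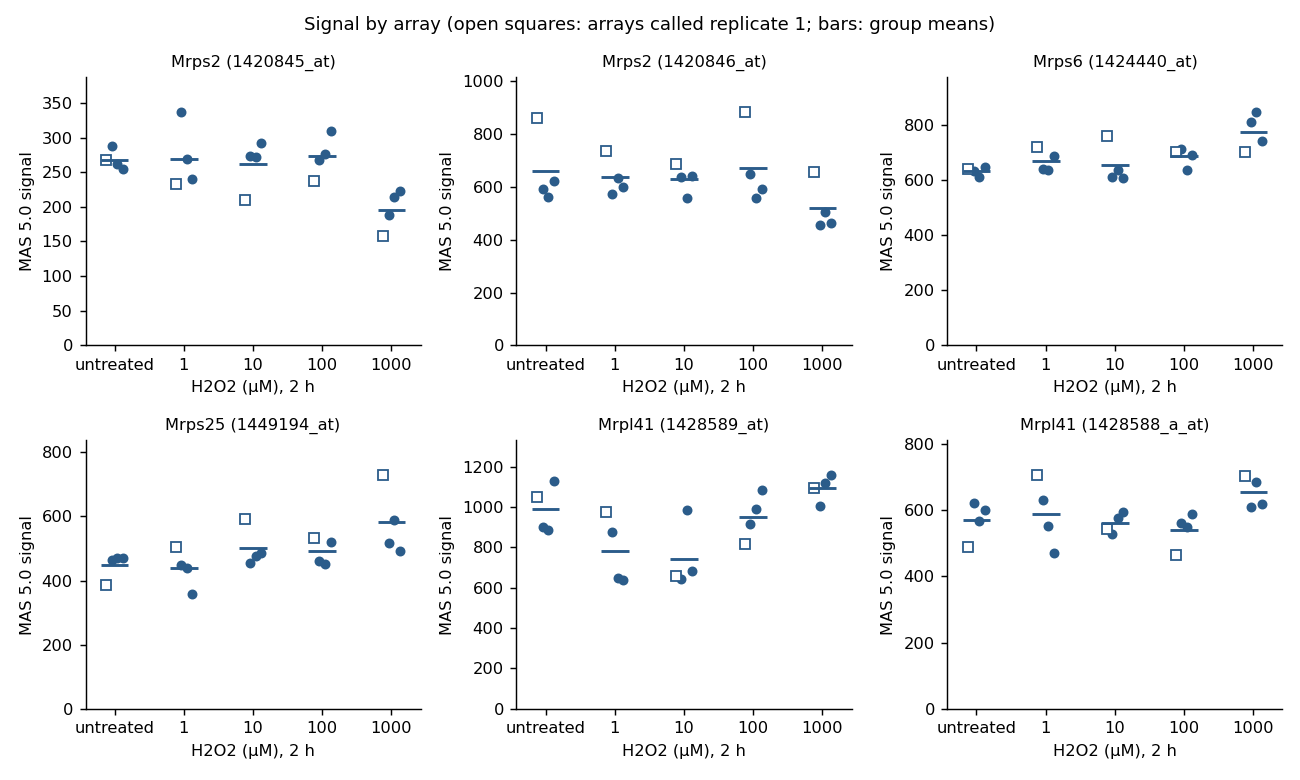
MAS 5.0 signal of each array (y axis, linear from 0) by H2O2 dose in µM (x axis) for probe sets of Mrps2, Mrps6, Mrps25 and Mrpl41; open squares are arrays called replicate 1 and bars are means of 4 arrays. The 1000 µM arrays of Mrps6 (703 to 847) lie above the untreated ones (612 to 649), and those of the dimmer Mrps2 probe set (158 to 223) below (254 to 288).

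At the upper end of the members at 1000 µM stood Mrps25, a mitochondria-only protein of the small subunit. Its brighter probe set gave 386, 465, 469 and 469 untreated and 728, 516, 590 and 491 at 1000 µM. The groups did not overlap, and the replicate 1 array was the lowest untreated and the highest treated one. The Mrps25 difference was 0.37 ± 0.13 (adjusted p = 0.0708), and 0.18 (adjusted p = 0.201) over replicates 2 to 4 alone. Mrps25 was called with the replicate number as a block (adjusted p = 0.0337), with a term for the replicate 1 arrays (adjusted p = 0.0205), with quantile normalization (0.47, adjusted p = 0.0373) and after both centrings. Its other probe set differed by 0.19 (adjusted p = 0.531). Mrpl49 is likewise found in mitochondria only. The Mrpl49 probe set that rose under quantile normalization (0.44, adjusted p = 0.0456) gave 366, 318, 284 and 408 untreated and 426, 395, 404 and 466 at 1000 µM, which overlap, with 0.31 ± 0.13 under the deposited scaling (adjusted p = 0.123). That probe set was also called at 1000 µM after both centrings, with array weights and with the replicate block. The other Mrpl49 probe set gave 0.06 (adjusted p = 0.705) and was called after centring on all probe sets.

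The signals of Mrpl33, a homologue of bacterial L33, ran from 738 to 1133 untreated, from 530 to 1014 at 1 µM, from 741 to 1600.5 at 10 µM, from 535 to 942 at 100 µM and from 991 to 1456 at 1000 µM. The Mrpl33 difference was 0.37 ± 0.24 at 1000 µM (adjusted p = 0.361) -0.29 at 100 µM (adjusted p = 0.73), 0.01 at 10 µM and -0.38 at 1 µM (adjusted p = 0.821). Mrpl57, a small mitochondria-only protein, gave 521, 895, 938 and 923 untreated and 846, 1125, 1100 and 1013 at 1000 µM. The Mrpl57 differences were 0.29, 0.38, 0.29 and 0.35 from 1 to 1000 µM (adjusted p = 0.109 at 1000 µM), all against an untreated mean that holds the low replicate 1 array; its dimmer probe set gave -0.10 at 1000 µM. Over replicates 2 to 4 alone Mrpl57 rose at 1000 µM, by 0.23 (adjusted p = 0.0231). Mrpl57 was also called after both centrings, with array weights, with the replicate block and with the replicate 1 term. That made 6 of the 11 limma alternatives, while 0 of 8 fits without 1 array called it. Mrpl54 differed by 0.29 ± 0.14 (adjusted p = 0.177).

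At the lower end, taking each gene's brightest probe set, Mrpl19 differed by -0.31 ± 0.13 at 1000 µM (adjusted p = 0.132). Its signals were 690, 481, 520 and 564 untreated and 438, 438, 474 and 458 treated. These did not overlap, while its second probe set gave -0.05. The dimmest probe sets of Mrpl44, Mrpl50 and Mrpl1 stood lower, at -0.48, -0.40 and -0.35, where the brightest gave -0.10, -0.05 and 0.03. That of Mrpl44 was not called in the main fit. It was called as a fall with array weights, the replicate block or the replicate 1 term, and without untreated replicate 4 or 10 µM replicate 4. Mrpl18, the homologue of the bacterial protein that binds 5S rRNA, differed by -0.22 ± 0.17 (adjusted p = 0.428), Mrps9 by -0.21 ± 0.17 (adjusted p = 0.451) and Mrpl43 by -0.12 ± 0.13 (adjusted p = 0.615). Mrpl18 (-0.26), Mrpl33 (-0.29) and Mrps21 (-0.25) were also the lowest genes at 100 µM, and Mrps18b (0.38), Mrpl57 (0.29) and Mrps5 (0.25) the highest there, none of them called. Closest to 0 at 1000 µM were Mrpl20, Mrpl51 and Mrpl39, at 0.00, -0.01 and 0.01. Mrpl20 stood at 876, 1304, 1149 and 1208 at 1 µM, all above its untreated signals of 713 to 792, a difference of 0.56. That value was not called at 1 µM under the deposited scaling (adjusted p = 0.581), and it was over replicates 2 to 4 alone, where Mrpl20 was 1 member of the 0.744% of all tested that were called.

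The members with a known structural role had no call under the deposited scaling or quantile normalization; centred on all probe sets, Mrpl10, Mrpl12, Mrps11, Mrps12, Mrps18b, Mrps18c and Mrps36 rose, and centred on the tested ones Mrps11, Mrps18b and Mrps36. With array weights Mrpl12 and Mrps18c were called. Mrpl10 and Mrpl12 form the stalk that recruits translation factors; Mrpl12 gave 1394, 1289, 1485 and 1309 untreated and 1600, 1488, 1571 and 1534 at 1000 µM, wholly higher, with a difference of 0.18 ± 0.10 (adjusted p = 0.272). Mrpl10 differed by 0.13 ± 0.08 (adjusted p = 0.368) and Mrpl11, at the base of that stalk, by 0.05 ± 0.12 (adjusted p = 0.83). Mrps12, at the decoding site, differed by 0.24 ± 0.13 (adjusted p = 0.223). Mitochondria have 3 homologues of bacterial S18, of which Mrps18a is built into the large subunit. They gave 0.01 ± 0.08 for Mrps18a, 0.29 ± 0.13 for Mrps18b and 0.14 ± 0.08 for Mrps18c (adjusted p = 0.953, 0.154 and 0.323); the differences between them were not tested. Mrps30, named for the small subunit and placed in the large one, gave -0.06 ± 0.09, which was above 0 with quantile normalization (0.05) and both centrings. Mrps36, which is found in the 2-oxoglutarate dehydrogenase complex, gave 0.16 ± 0.09 (adjusted p = 0.245). The head-to-head pair Mrpl46 and Mrps11, which start 42 bases apart, gave 0.08 ± 0.13 and 0.29 ± 0.12 (adjusted p = 0.738 and 0.136).

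By the subunit in the gene name, the 36 probe sets of the 27 Mrps genes had a median of 0.05 at 1000 µM with 22 above 0. The 73 of the 47 Mrpl genes had 0.07 with 54 above 0. Both calls were in the small subunit. By origin, which was not assigned to every member, 67 probe sets of 45 homologues of bacterial proteins had a median of 0.07. The 41 of 28 mitochondria-only genes had 0.05. With quantile normalization the medians were 0.12 and 0.13 by subunit name, and 0.12 and 0.15 by origin. The difference between 1000 and 100 µM was called in 0 of 109 members (4.35% of all tested, 0.744% higher and 3.6% lower; 19 members unadjusted, 17.4% against 17.8%), with a median of 0.04 against -0.04 over all tested. With quantile normalization it was called in 0 (2.55% of all tested, 0.73% higher and 1.82% lower; 18 members unadjusted, 16.5% against 15.1%). Wholly higher at 1000 than at 100 µM were 9 members (4.44% of all tested) and wholly lower 4 (10.4%).

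Of the 74 genes, 26 had 2 or more tested probe sets, which made 47 pairs. In 1 pair the differences at 1000 µM differed from each other (limma on the within-array difference, adjusted over all 7839 such pairs of the array, 1.11% of which were called). It belongs to Mrpl15, a homologue of bacterial L15 with 5 tested probe sets. Its second-brightest probe set, of the _x kind, gave 1387, 936, 1056 and 1124 untreated and 1393, 1123, 1137 and 1197 at 1000 µM. Its dimmest, also of the _x kind, gave 132, 109, 95.5 and 94.2 untreated and 83.6, 53.0, 76.3 and 51.5 at 1000 µM. The latter groups did not overlap and the former did. The Mrpl15 differences were 0.12 and -0.72, apart by 0.84 ± 0.17 (adjusted p = 0.0177), and those of the other 3 were 0.18, 0.12 and -0.03. The lowest Mrpl15 value, also the lowest of all 109, was not called (adjusted p = 0.053), and this probe set reached the 40th percentile on 10 of the 20 arrays. It was called with a floor of 32, without a trend, with array weights, with the replicate block, over replicates 2 to 4 and with the replicate 1 term. It was also called without 1 µM replicate 1, 2 or 3, without 100 µM replicate 1 and without 1000 µM replicate 1.

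**Figure D4:**
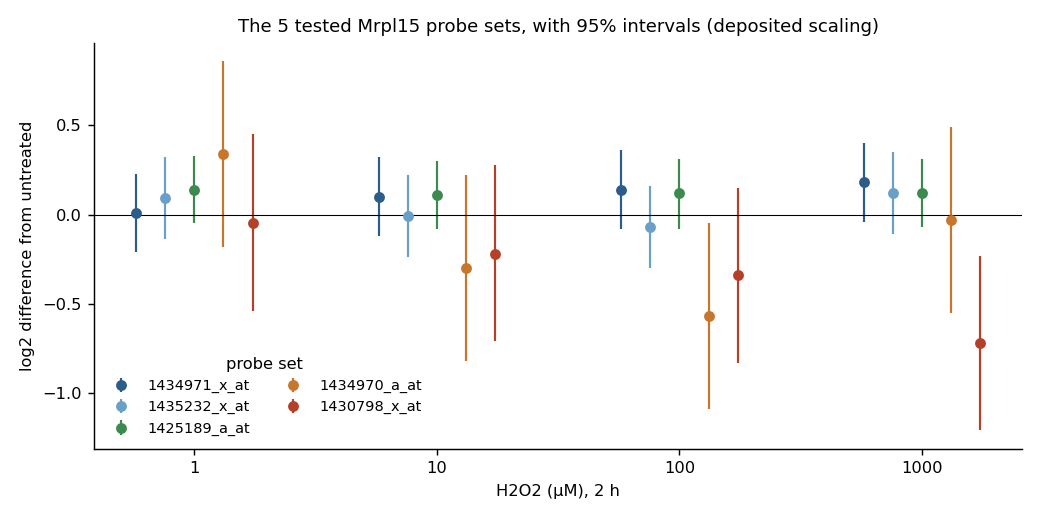
Log2 difference from untreated (y axis) of the 5 tested Mrpl15 probe sets at each H2O2 dose in µM (x axis); points are fitted differences from 4 arrays a group and lines are 95% intervals. At 1000 µM the dimmest stands at -0.72 and the other 4 between -0.03 and 0.18.

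The other gene groups of mitochondrial translation are given by the lists drawn up for comparison. For scale, 2.46% of all tested probe sets rose at 1000 µM and 8.48% fell. With quantile normalization 2.04% of all tested rose and 3.32% fell. Mitoribosomal proteins with other names (4 genes, 5 probe sets) had 1 rise at 1000 µM and 0 falls: Chchd1, a small-subunit protein, rose by 0.31 ± 0.07 (adjusted p = 0.00412; quantile 0.27, adjusted p = 0.0134). Of 33 probe sets of 17 mitoribosome assembly factors, 1 fell and 0 rose: Eral1, a GTPase that binds the small-subunit rRNA, differed by -1.19 ± 0.28 on 1 of its 5 probe sets (adjusted p = 0.00951; quantile -0.97, adjusted p = 0.0395). With quantile normalization Mrm1, a methyltransferase of the large-subunit rRNA, also rose (0.73, adjusted p = 0.00879), from 0.53 under the deposited scaling (adjusted p = 0.069). Of 14 probe sets of 13 translation factors, 0 rose and 1 fell: Mtfmt, which formylates the initiator methionyl-tRNA, differed by -0.49 ± 0.15 (adjusted p = 0.0434; quantile -0.30, adjusted p = 0.325). Of 12 probe sets of mitochondrial aminoacyl-tRNA synthetases, 0 were called in limma under either scaling. Under each, 1 had an unadjusted p under 0.05, where 26.2% (deposited) and 18.5% (quantile) of all tested did. The medians of these lists at 1000 µM were -0.08, -0.10, -0.19 and 0.02, and -0.02, 0.05, -0.05 and 0.18 with quantile normalization, under which that of the assembly factors changed sign.

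Among 27 probe sets of 17 regulators of mitochondrial gene expression and biogenesis, 2 rose and 4 fell at 1000 µM (22.2%). Of all tested, 10.9% were called there, 2.46% higher and 8.48% lower. Myc rose by 1.37 ± 0.12 (adjusted p = 4.3e-07), after 0.88 at 100 µM. Gabpb1, a subunit of the ETS factor GABP, rose by 0.47 ± 0.14 on 1 of 2 probe sets (adjusted p = 0.0408) and by 0.63 at 100 µM (adjusted p = 0.0314). Ppargc1b and Pprc1, coactivators of the PGC-1 family, fell by 0.73 and 0.38 on the log2 scale (adjusted p = 0.00127 and 0.0293), and Polrmt, the mitochondrial RNA polymerase, fell by 0.41 on 1 of 2 probe sets (adjusted p = 0.00877). Mterf2 fell by 0.39 (adjusted p = 0.0243). With quantile normalization the rises of Myc and Gabpb1 and the fall of Ppargc1b were called, and the other 3 were not. Under that scaling 5.36% of all tested were called. For import and chaperones 4.41% of 68 probe sets were called under the deposited scaling, against 10.9% of all tested. Of these, 2 rose (Tomm20 by 0.26 and Timm13 by 0.30, log2) and 1 fell (Afg3l2 by 0.31). None of these was called with quantile normalization (Tomm20 0.05, Timm13 0.24 and Afg3l2 -0.20, with adjusted p = 0.712, 0.116 and 0.25), where Timm8a1 and Timm50 rose instead (0.54 and 0.34, adjusted p = 0.043 and 0.0332).

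The 84 probe sets of 44 cytosolic ribosomal protein genes had a median of 0.26 at 1000 µM. They had 8 rises and 2 falls (11.9%, against 10.9% of all tested, 2.46% higher and 8.48% lower). After quantile normalization their median was 0.02, with 1 rise and 2 falls (3.57%, against 5.36%, 2.04% higher and 3.32% lower). The 132 probe sets of 73 oxidative phosphorylation genes had 0.14 with 13 rises and 0 falls (9.85%, where 2.46% of all tested rose and 8.48% fell). After quantile normalization they had 0.04, with 0 calls in limma. Of the 132, 12 then had an unadjusted p under 0.05, where 18.5% of all tested did. The mitoribosomal median went from 0.07 to 0.13. The difference between these groups was not tested.

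**Figure D5:**
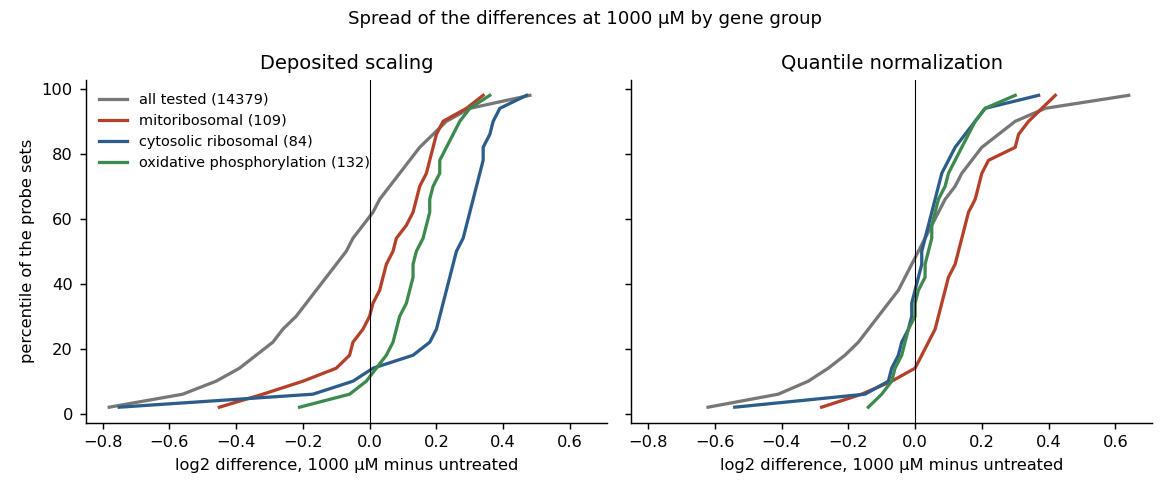
Percentile of the probe sets (y axis) against the log2 difference between 1000 µM and untreated (x axis), for mitoribosomal, cytosolic ribosomal, oxidative phosphorylation and all tested probe sets, under 2 scalings. The medians, at the middle of the y axis, are 0.07, 0.26, 0.14 and -0.07 with the deposited scaling and 0.13, 0.02, 0.04 and 0.01 with quantile normalization.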

How the data were processed

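The deposited values are linear probe-set signal intensities from Microarray Suite 5.0, per the submitters' processing notes and the design text; the authors scaled each array, and the 2% trimmed means of the deposited intensities were 500.1 to 500.2. Each sample has 1 array and no read depth; 4 arrays a group limit the precision. Each array was rescaled to a common trimmed mean, a floor of 1 was set, and the log2 of the signals was used. The 64 control probe sets were left out, and 14379 of 22626 others passed the filter. limma 3.58.1 in R 4.3.3 fitted the 5 groups together (lmFit, then eBayes with trend; degrees of freedom were 15 from the arrays and 5.33 from the prior); p-values are two-sided and Benjamini-Hochberg adjusted over all tested probe sets. The code was tested on simulated data.

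Groups came from the sample titles; 1 title misspells its unit, and a 10 µM title has no replicate number. The members and lists were chosen with earlier results of these data known. Genes named are those called, the 5 highest and 5 lowest at 1000 µM, the 3 highest and 3 lowest at 100 µM, the 3 closest to 0, those with unequal probe sets and those with a listed structural role. Mrpl1, Mrpl44, Mrpl46, Mrpl49, Mrpl50, Mrps11, Mrm1, Timm8a1 and Timm50 were added after their values were seen. Outside these rules, Mrpl32, Mrpl47, Psma2 and Ndufb5 were given as head-to-head pairs. A gene stands for its brightest tested probe set. Probe sets were named by the platform annotation (127 of 127 matched RefSeq by Entrez identifier, 0 symbols changed), and 3 with several symbols (with Mrpl30, Mrpl53 and Mrps34) were left out. Alternatives were quantile normalization, centrings, filters, a floor of 32, array weights, no trend, a replicate block, replicates 2 to 4, a replicate 1 term, single arrays left out, and the design text's crossed comparison with a fold above 1.75.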

Additional observations from a re-analysis of the deposited data

Results flagged for a closer look

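Within groups of 4 arrays, 135 sets of values were searched for a lone array, and 17 held one by Dixon's criterion at 95%; chance gives about 1 in 20. Of the 17 lone arrays, 14 were called replicate 1. The median over the members at 100 µM was highest on replicate 1, at 9.62 (log2) against 9.54 to 9.55 on the others.

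Among untreated arrays, replicate 1 was lowest for Mrpl10 (9.63), Mrpl57 (9.02) and Mrps25 (8.59) and highest for Mrpl11 (10.36) and Mrpl39 (11.12). At 10 µM it was highest for Mrps18b (9.72) and lowest for Mrps18c (9.52). At 100 µM it was highest for Mrpl12 (10.83) and Mrps12 (9.66) and lowest for Mrpl43 (9.22) and Mrps21 (9.66). At 1000 µM it was highest for Mrpl18 (10.10, against 9.30 to 9.42) and lowest for Mrps18c (9.67). The other 3 were Mrps5 on 1 µM replicate 4 (8.37, low), Mrpl41 on 10 µM replicate 3 (9.95, high) and Mrps30 on 10 µM replicate 3 (9.02, low).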

How the results depend on the processing

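The numbers of members called at 1000 µM against untreated were 36 and 18 after centring on all or on the tested probe sets (16.9% and 12.1% of all tested). They were 1 with no filter (5.47%), 22 with array weights (16 rises, 6 falls, 29.7% of all tested) and 7 over replicates 2 to 4 alone (4 rises, 3 falls, 17.6%). The replicate 1 term gave 9 (4 rises, 5 falls, 22.8%) and the crossed rule 0 (1.84%). For 1000 against 100 µM they were 1 when centred on all probe sets (2.79% of all tested), 1 without a trend (4.31%), 15 with weights (18.5%), 6 over replicates 2 to 4 (9.05%) and 6 with the replicate 1 term (11.5%). Any change over the doses was called in 7 and 4 when centred (all, tested; 6.72% and 6.92% of all tested), 0 with no filter (4.09%), 2 at the stricter filter (9.23%), 0 without a trend (7.97%), 23 with weights (33.2%), 14 over replicates 2 to 4 (20.3%) and 9 with the replicate 1 term (20.9%). At 100 µM, weights and the replicate 1 term each called 1 (6.14% and 3.96%), and at 1 µM replicates 2 to 4 called 1 (0.744%). The cause was not tested.

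The members' median at 1000 µM was 0.13 with quantile normalization, 0.27 and 0.19 when centred (all, tested). For 1000 against 100 µM it was 0.09, 0.17 and 0.12; the centrings gave 0.11 and 0.07 at 10 µM and 0.07 and 0.04 at 100 µM. With the median of each gene's probe sets, the median over the 74 genes was 0.07 at 1000 µM.

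Replicate numbers were tried as a block without the unnumbered array: 9 members were called at 1000 µM (5 rises, 4 falls; 19.8% of all tested), 5 for 1000 against 100 µM (9.67%) and 6 for any change (15.8%). Same-numbered arrays correlated in their deviations by 0.462 to 0.514 for number 1 and by 0.00993 to 0.261 for the rest. Pairs of different numbers ran from -0.388 to 0.325, with a median of 0.0853. The medians of same-numbered pairs were 0.12, 0.189 and 0.125 for numbers 2, 3 and 4. Number 1 thus stood apart, while not every pair of numbers 2 and 4 passed 0.1, so the numbers as a whole were not taken to pair the samples.

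Leaving out 1 array gave 0 to 4 calls at 1000 µM: 0 to 2 without an array of the groups compared (0 without untreated replicate 1, 2 or 3 or 1000 µM replicate 2, 1 without untreated replicate 4 or 1000 µM replicate 3), and 2 to 4 without one of another dose (3 without 1 µM replicate 1, 2 or 3 or 10 µM replicate 4, 4 without 100 µM replicate 1). It gave 0 to 1 for 1000 against 100 µM and 0 to 3 for any change. At 1000 µM these fits called 6.89% to 12.8% of all tested. The shares were 2.51% to 5.39% for 1000 against 100 µM and 4.69% to 10.3% for any change.

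Differences at 1000 µM that were not called changed sign as follows: with quantile normalization, Mrpl39 to -0.04 and Mrps30 to 0.05; centred on all probe sets, Mrpl43 to 0.08, Mrpl51 to 0.20 and Mrps30 to 0.14; centred on tested ones, Mrpl43 to 0.00, Mrpl51 to 0.12 and Mrps30 to 0.06; with weights, Mrpl20 to -0.05, Mrpl51 to 0.04, Mrps18a to -0.01, Mrps21 to -0.04 and Mrps30 to 0.06; over replicates 2 to 4, Mrpl20 to -0.05, Mrpl51 to 0.04, Mrps18a to -0.01, Mrps21 to -0.07, Mrps30 to 0.07 and Mrps9 to 0.02. Without single arrays, the genes that changed sign ran from -0.01 to 0.20 (Mrpl11), -0.07 to 0.05 (Mrpl20), -0.03 to 0.10 (Mrpl39), -0.05 to 0.05 (Mrpl51), -0.03 to 0.06 (Mrps18a), -0.10 to 0.10 (Mrps21) and -0.12 to 0.03 (Mrps30).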
